A study of Homo sapiens with 11 samples.

Results

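Wide H3K27me3 domains of HK2 cells were defined as H3K27me3 ChIP-seq peaks of replicate 1 that spanned 8000 bp or more and overlapped at least 1 bp of a replicate 2 peak, on chromosomes 1 to 22 and X. Of 45855 replicate 1 peaks on these chromosomes, 1088 met the rule. HK2 is a human kidney cell line immortalised with papillomavirus oncogenes and labelled as proximal tubular epithelium, and all libraries came from cells kept in DMEM-F12 with 10% FBS and 0.05% DMSO. H3K27me3, H3K4me3 and H3K27ac were each profiled in 2 ChIP-seq replicates, and RNA was sequenced in 2 libraries, so all results are from a single condition in a single line. The domains were thus selected on peak width in replicate 1 and overlap in replicate 2, and these values are given as a description, with no test. A gene was taken as belonging to a domain where at least 1 of its annotated transcription start sites (TSSs) fell inside, which gave 353 of 19600 protein-coding genes. That is 1.8% of them.

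H3K27me3 is deposited by Polycomb repressive complex 2, whose catalytic subunit EZH2 methylates lysine 27 of histone H3, and it is bound by complexes of the Polycomb repressive complex 1 family. In mammals this system keeps developmental regulators of other lineages silent, and the mark often spreads from CpG-rich promoters into broad domains. H3K4me3 marks CpG-rich and active promoters, and its presence together with H3K27me3 is called bivalency, whereas H3K27ac sits on the same lysine as H3K27me3 and marks active promoters and enhancers.

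The DNA of these domains ranged from dense CpG islands to sequence poor in CpG, and 5 stretches of 200 bases are shown because they span that range. Each is given 5′ to 3′ on the strand named, from the GRCh37 (hg19) genome, with every CG in capitals and all other bases in lower case. For the 4 genes the stretch ends at the base before the start of the Ensembl canonical transcript, the representative transcript of a gene. SOX2 (chr3:181429513-181429712, plus strand, 19 CG) and LRP2 (chr2:170219045-170219244, minus strand, 18 CG) have CpG-rich promoters. TMC2 (chr20:2517019-2517218, plus strand, 7 CG) and RGS8 (chr1:182653723-182653922, minus strand, 8 CG) lie in 2 of the 10 widest domains with far fewer. The last stretch is the middle of the widest domain with no protein-coding TSS (chr10:127179641-127179840, plus strand, 2 CG).
SOX2: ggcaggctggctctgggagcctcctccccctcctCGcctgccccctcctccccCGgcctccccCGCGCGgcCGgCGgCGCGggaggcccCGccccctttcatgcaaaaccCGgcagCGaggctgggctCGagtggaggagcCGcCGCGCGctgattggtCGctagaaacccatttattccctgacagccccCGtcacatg
LRP2: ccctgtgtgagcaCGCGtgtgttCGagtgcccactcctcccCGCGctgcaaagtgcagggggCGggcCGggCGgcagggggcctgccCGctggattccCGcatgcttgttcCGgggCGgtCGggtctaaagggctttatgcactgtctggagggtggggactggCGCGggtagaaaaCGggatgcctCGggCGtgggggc
TMC2: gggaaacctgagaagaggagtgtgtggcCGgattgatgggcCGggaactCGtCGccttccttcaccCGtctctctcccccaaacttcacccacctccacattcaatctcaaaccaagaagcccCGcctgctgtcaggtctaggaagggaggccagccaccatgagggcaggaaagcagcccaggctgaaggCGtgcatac
RGS8: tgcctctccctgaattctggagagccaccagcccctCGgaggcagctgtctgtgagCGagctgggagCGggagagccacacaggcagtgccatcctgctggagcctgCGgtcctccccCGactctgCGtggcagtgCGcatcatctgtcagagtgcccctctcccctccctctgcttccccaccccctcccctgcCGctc
TSS-free domain: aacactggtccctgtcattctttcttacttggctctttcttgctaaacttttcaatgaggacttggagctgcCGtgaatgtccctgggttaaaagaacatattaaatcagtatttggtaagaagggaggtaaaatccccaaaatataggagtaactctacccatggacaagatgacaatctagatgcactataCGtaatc

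Across the 310 genes whose canonical start was inside a wide domain, the 200 bases upstream held a median of 14.5 CG, against 16 for 19503 protein-coding genes with a canonical start. At least 10 CG were present in 64.2% of these promoters and in 67.7% of all promoters, so promoters in wide domains were not richer in CpG than promoters in general. The number varied with H3K4me3. The median was 18 CG for the 153 promoters with H3K4me3 peaks of both replicates within 1 kb of the canonical start, like SOX2, and 8 CG for the 157 without, such as RGS8. The groups overlapped, since 70 of the 157 (44.6%) had at least 10 CG, among them LRP2 with 18.

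The 1088 domains had a median width of 10520.5 bp, with quartiles at 9102.5 and 13638.5 bp, and together covered 13.4 Mb, or 0.441% of chromosomes 1 to 22 and X. By width, 463 spanned 8 to 10 kb, 420 spanned 10 to 15 kb, 122 spanned 15 to 20 kb and 83 were of 20 kb and more. The narrowest members measured 8001, 8001 and 8002 bp, on chromosomes 6, 1 and 1, and held no protein-coding TSS. Just under the limit were peaks of 7997, 7997 and 7993 bp, of which 1 held a TSS of BPIFA3 and 1 a TSS of MCOLN3. A further 18 replicate 1 peaks were wide enough but had no replicate 2 peak, and only CCDC172 had a TSS in these.

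The H3K27me3 peaks of replicate 2 were narrower than those of replicate 1 and covered only part of the wide domains. Whether signal or peak calling led to this was not tested. Peaks of replicate 2 covered 43.9% of the bases of the wide domains, and 34.8% of the bases of the 13985 narrower replicate 1 peaks that also met a replicate 2 peak. A wide domain contained a median of 3 replicate 2 peaks, and the TMC2 domain contained 19. Replicate 2 covered 50% or more of the domain in 377 cases (34.7%) and under 10% of it in 85 cases (7.81%). Its own list had only 86 peaks of 8000 bp or more, with a median peak width of 535 bp against 1181 bp in replicate 1. All 86 overlapped a wide domain by at least 1 bp. Replicate 2 coverage was most complete at PRDM12 (100% of 10082 bp), EMX2 (99.95% of 15528 bp), LHX5 (99.5% of 17347 bp), DMRTA2 (98.8% of 16422 bp) and LHX3 (98.1% of 12080 bp). All 5 encode transcription factors of the developing nervous system, and EMX2 is also needed for the urogenital tract. None reached an FPKM (fragments per kilobase of transcript, scaled to the mapped fragments of the library) of 0.1 in either RNA-seq library. For LHX3 the canonical start lay outside the domain.

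The 10 widest domains ranged from 32537 to 46258 bp, and 8 of them held a TSS. The widest of all (chr20:2513399-2559656) held TMC2, which encodes a mechanotransduction channel component of inner ear hair cells. Next came the domain of BMP7, a BMP ligand needed for kidney development, at 45090 bp (chr20:55825976-55871065), and that of FOXA2, a forkhead factor of the endoderm, at 41795 bp (chr20:22535598-22577392). The domain of FOXF1, a forkhead factor of lung and gut mesenchyme, measured 34041 bp (chr16:86518947-86552987). Those of RNF220, a ubiquitin ligase, and RGS8, a regulator of G protein signalling, measured 34005 and 33949 bp. Among the 10 widest, replicate 2 peaks covered the lowest share at RGS8, with 14.7%, and the highest at FOXF1, with 85.0%. LAMP5, a neuronal membrane protein, lay in a domain of 32954 bp. NR2E1, a nuclear receptor of neural stem cells, and OSTM1, a lysosomal membrane protein, shared the tenth at 32537 bp. No domain held more than 2 protein-coding genes, and HMX2 with HMX3, ZIC1 with ZIC4 and EVX2 with HOXD13 were among the pairs.

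RNA of these genes was near 0 in both libraries except for RNF220 and OSTM1. The FPKM values of FOXA2 were 0.041 and 0.055 in libraries 1 and 2, and those of TMC2 were 0 and 0.051. BMP7, RGS8 and NR2E1 were listed at 0 in both. RNF220 had 41.7 and 45.7, and OSTM1 had 8.86 and 9.87, levels described with the expressed genes.

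Wide domains were unevenly spread over the genome. Chromosomes 1, 10 and 20 carried 219, 204 and 213 of them, together 636 (58.5%), although these chromosomes make up 14.7% of the length and 16.6% of the protein-coding genes. The density was 0.879 per Mb on chromosome 1, 1.51 on chromosome 10 and 3.38 on chromosome 20, and at most 0.432 on any other, the value of chromosome 6. Chromosomes 19 and 21 held 2 each, and 22 and X held 1 each. Within chromosome 10 the long arm held 203 and the short arm 1. On chromosome 1 the long arm held 172 and the short arm 47, and on chromosome 20 both arms were dense, with 120 on the short and 93 on the long arm.

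**Figure D1:**
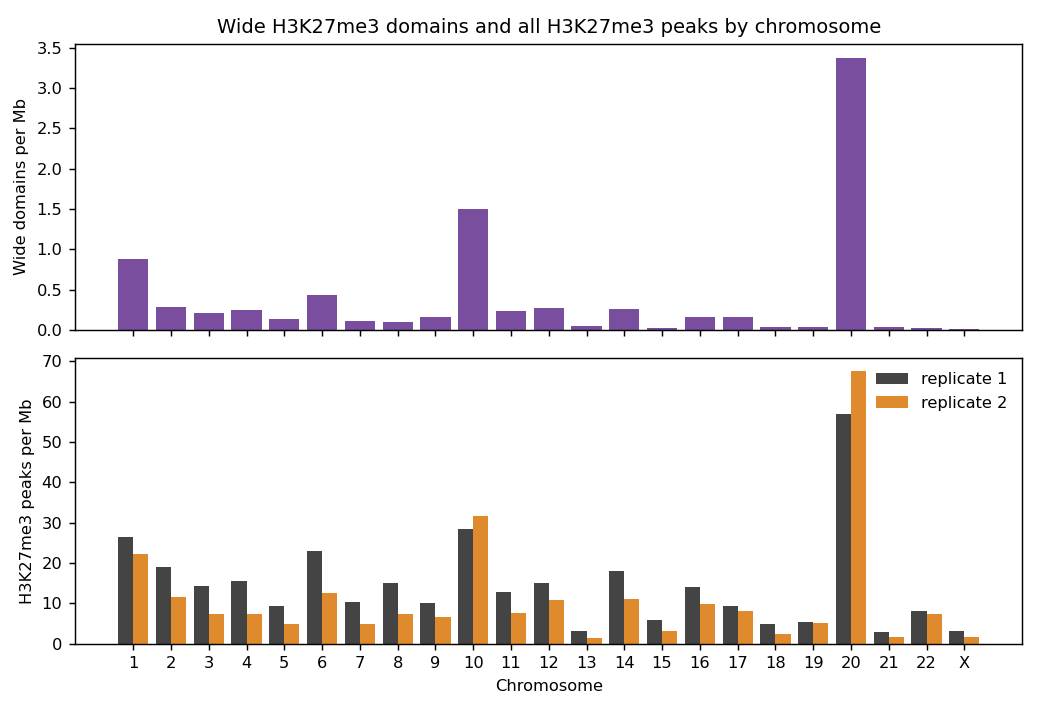
Wide H3K27me3 domains per Mb (upper panel) and all H3K27me3 peaks per Mb in replicates 1 and 2 (lower panel) for each chromosome. Chromosome 20 stands highest in both panels, with 3.38 domains per Mb and 57.1 and 67.5 peaks per Mb, and chromosomes 10 and 1 follow in the upper panel.

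The same chromosomes, with 14.7% of the length and 16.6% of the protein-coding genes, also had a raised share of some other peak lists. They held 30.7% of all H3K27me3 peaks in replicate 1 and 43.1% in replicate 2, and 35 of the 86 peaks of replicate 2 that spanned 8000 bp or more. For H3K4me3 the share was 19.5% in replicate 1 and 26.4% in replicate 2, with 14.8 and 94.7 peaks per Mb on chromosome 20. For H3K27ac it was 17.1% and 18.2%, close to the share of genes. Genes whose mean FPKM over the 2 libraries was 1 or more had a median of 17.5 on chromosome 20, the highest of the 23 chromosomes. Whether the number of copies of these chromosomes, or another property of the libraries, contributed to the density of wide domains was not tested.

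Domains on chromosomes 1, 10 and 20 also differed in content from those elsewhere. A protein-coding TSS was present in 24.1% of the 636, against 42.7% of the 452 on the other chromosomes. H3K4me3 peaks of both replicates were present in 14.6% against 38.3%, and the median observed to expected ratio of CpG was 0.20 against 0.33. Median widths were 10593 and 10441.5 bp. These are differences between regions of the same libraries, without a replicate of the comparison.

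A protein-coding TSS was found in 346 wide domains (31.8%), whereas 5.19% of all replicate 1 peaks had one. The share was 11.7% among the narrower peaks that met a replicate 2 peak, and 76.7% among the 86 replicate 2 peaks of 8000 bp or more. Longer regions contain more of everything, and per length the order was different. Wide domains held 26.4 genes with a TSS per Mb, and narrower peaks that met a replicate 2 peak 40.3. The genome has 6.46 protein-coding genes per Mb, a value that counts each gene at a single place. The region values count a gene where any of its starts lies inside, so they are not on the same scale as the genome value. Among wide domains the share with a TSS went from 24.6% at 8 to 10 kb to 63.9% at 20 kb and more, while genes per Mb stayed between 25.3 and 28.3 in all 4 width classes.

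The other 742 domains held no protein-coding TSS. Of these, 551 did not touch a protein-coding gene and 191 overlapped a gene body. Their median distance to the nearest protein-coding TSS was 30.6 kb, and 157 lay over 100 kb away. The 2 TSS-free domains among the 10 widest were both on the long arm of chromosome 10, at 37659 bp and 32864 bp. The spacing of all wide domains varied, with 329 (30.2%) within 20 kb of another and 189 (17.4%) over 1 Mb from any other. The median gap between neighbours was 242.7 kb.

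CpG content separated domains with a TSS from those without. The median observed to expected CpG ratio was 0.45 for the 346 with a TSS and 0.19 for the 742 without, and the genome average was 0.24. Over all 1088 it was 0.22, with 0.43 for the 377 domains that replicate 2 covered to 50% or more and 0.59 for the 86 replicate 2 peaks of 8000 bp or more. A window of 200 bp with at least 50% GC and a ratio of at least 0.6, similar to a CpG island, was found in 85.8% of the 346 domains with a TSS and 38.4% of the 742 without. The LBX1, SIM2 and FOXF1 domains had 41.2, 42.0 and 41.4 CpG per kb, against 9.87 for the genome. At the other end, the SLPI domain of 28824 bp had 5.76 CpG per kb and the DEFB126 and DEFB127 domain of 21130 bp had 6.01, both on chromosome 20. SLPI encodes a secreted protease inhibitor and the DEFB genes encode defensins.

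**Figure D2:**
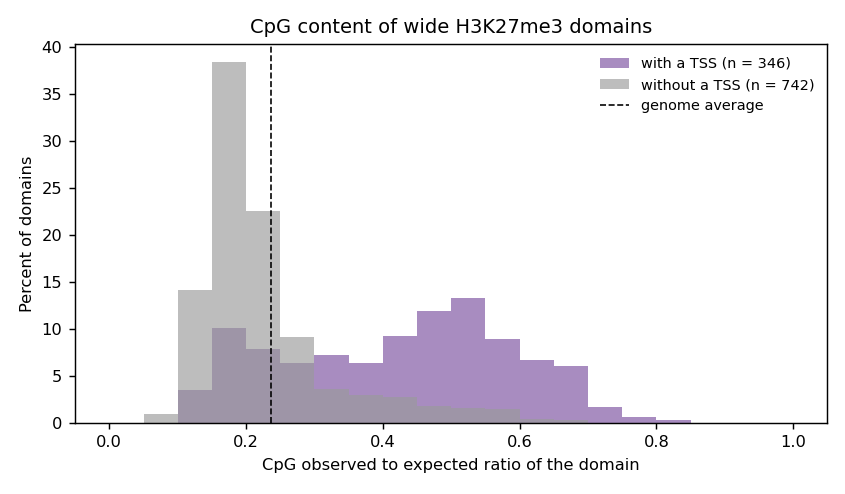
Observed to expected CpG ratio of wide H3K27me3 domains, as percent of the 346 domains with a protein-coding TSS and of the 742 without. Most domains without a TSS lie below the genome average of 0.24 (dashed line), whereas those with a TSS spread up to above 0.8 and have a median of 0.45.

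H3K4me3 peaks of both replicates were present in 266 wide domains (24.4%), against 3.67% of all replicate 1 peaks. They were found in 55.8% of the domains with a TSS and in 9.84% of those without. In bases, 2.33% of the wide domains lay under H3K4me3 of both replicates, against 2.52% of the narrower peaks that met a replicate 2 peak and 0.743% of the genome, so per base the wide domains and the narrower peaks were close. Of the 266 domains, 98.1% had a window similar to a CpG island.

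H3K27ac was nearly absent. Peaks of both replicates were present in 2 wide domains (0.184%), and covered 0.030% of the bases, against 1.25% of the genome. Other H3K27me3 peaks were alike in this, with such peaks in 0.072% of all replicate 1 peaks and in 0.207% of the narrower ones that met a replicate 2 peak, where they covered 0.037% of the bases. The median distance from a wide domain to the nearest H3K27ac peak shared by both replicates was 70.7 kb, and 98 domains had one within 10 kb. Replicate 2 of H3K27me3 covered 45.7% of bases in the 500-bp bin centred 3750 bp inside the domain edges. In the bin centred 3750 bp outside it covered 13.1%, and in that centred 250 bp outside 10.4%. The lowest outside value was 6.77%, in the bin centred 750 bp outside. All outside bins were above the genome value of 0.878%, so the surroundings of the domains also had raised replicate 2 coverage. H3K4me3 had a local maximum just outside the edges, at 2.32% of bases in the bin centred 1250 bp outside, and a local minimum of 0.839% in the bin centred 750 bp inside. H3K27ac covered 0.683% in the bin centred 2250 bp outside and 0% in the bins centred 750 to 2250 bp inside.

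**Figure D3:**
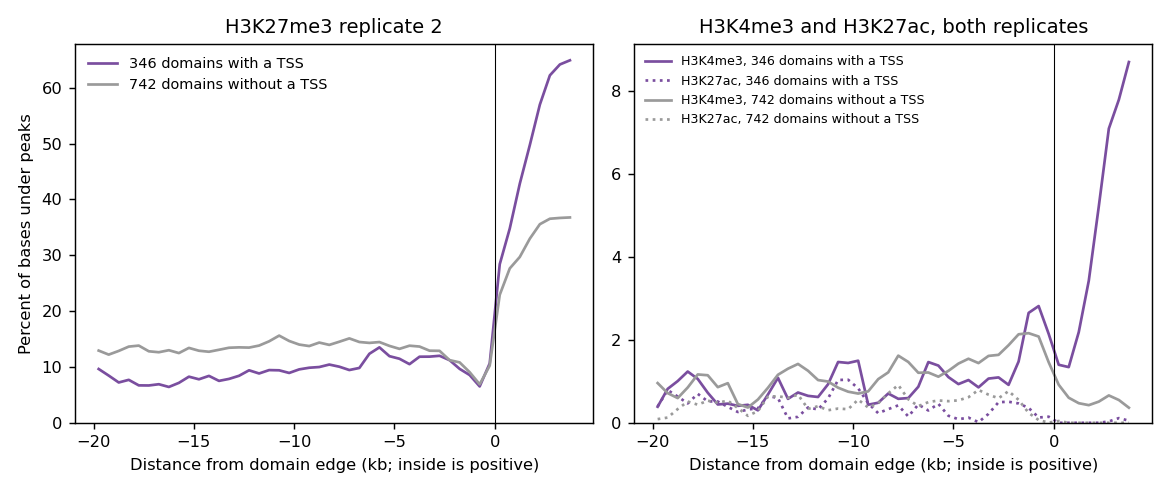
Percent of bases under H3K27me3 replicate 2 peaks (left) and under H3K4me3 or H3K27ac peaks of both replicates (right) by distance from the edge of wide domains, in bins of 500 bp, for 346 domains with and 742 without a protein-coding TSS. On the inner side H3K4me3 reaches 8.70% of bases in domains with a TSS and at most 0.918% in those without, and H3K27ac stays near 0 on the inner side in both.

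Member genes had low RNA. Here a gene is called expressed when both libraries gave it an FPKM of 1 or more. This held for 24 of 353 members (6.80%), whereas the share over all protein-coding genes was 58.9%. In each single library it was 7.08%. The median of the mean FPKM was 0.0092 for member genes, 0.028 for the 1499 genes with a TSS only in narrower peaks that met a replicate 2 peak, and 3.35 for all protein-coding genes. Within each library alone the median of the members was 0. Both libraries listed 160 members (45.3%) at 0, against 19.5% of all protein-coding genes. A mean FPKM under 0.1 was found for 267 members (75.6%), against 29.4%. On the scale of log10(FPKM + 1), the mean was 0.076 in library 1 and 0.075 in library 2 for members, and 0.680 and 0.682 for all genes. The gap was far larger than the difference between libraries, and no test over genes was made because genes are not replicates.

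**Figure D4:**
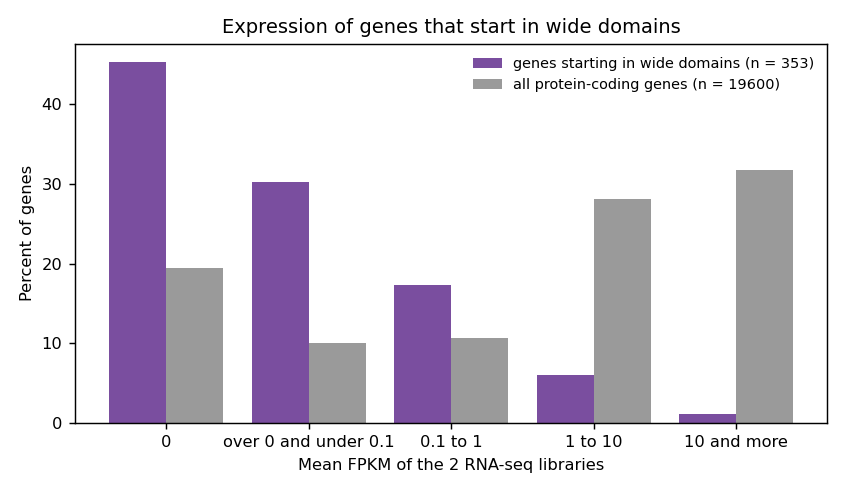
Percent of genes in each range of mean FPKM for the 353 genes with a TSS in a wide domain and for all 19600 protein-coding genes. Genes of wide domains are most frequent at 0, with 45.3%, and 1.13% of them reach 10, against 31.8% of all genes.

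Low RNA was found in all width classes and on both groups of chromosomes. The share with an FPKM of 1 or more in each library was 6.31% of 111 genes in domains of 8 to 10 kb, 8.40% of 131 at 10 to 15 kb, 1.89% of 53 at 15 to 20 kb and 8.62% of 58 at 20 kb and more, with no steady order by width. It was 5.92% of 152 genes on chromosomes 1, 10 and 20, and 7.46% of 201 elsewhere. RNA alone, measured in a population of cells, cannot tell a low level in every cell from a higher level in a few cells.

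H3K4me3 peaks of both replicates lay within 1 kb of an inside TSS for 173 members (49.0%). Over all TSSs of the gene the number was 197 (55.8%), which compares with 70.4% of all protein-coding genes. The replicates differed here, since replicate 1 alone gave 175 members and replicate 2 alone gave 274. Members with H3K4me3 of both replicates had a median FPKM of 0.043, and 15 of 173 (8.67%) reached 1 in both libraries. Members without had a median of 0, and 9 of 180 (5.00%) reached 1. Thus genes that carried both H3K4me3 and a wide H3K27me3 domain remained far below the median of all genes.

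H3K27ac peaks of both replicates were found at an inside TSS of 1 member, TNRC18. Over all TSSs of the gene the number was 22 (6.23%), against 55.2% of all protein-coding genes. Replicate 1 had a peak at an inside TSS for 21 members and replicate 2 for 1, so nearly all of these peaks were seen in replicate 1 only.

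The 24 members with an FPKM of 1 or more in each library fell into groups by where their transcripts start. For 12 of them another TSS, outside the wide domain, had H3K4me3 and H3K27ac peaks of both replicates. PHGDH, the first enzyme of serine synthesis, had 50.6 and 41.3, the highest FPKM among members, but its transcripts that start inside the domain had 0.089 and 0.128. The domain covered 1 of its 26 annotated starts and not the canonical one. SLC39A8, a zinc and manganese transporter, had 15.5 and 14.7, and its transcript from the domain was counted at 0 in both. Most RNA of these genes was thus assigned to transcripts that start elsewhere.

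The same held for RNF220, where transcripts from the domain had 1.64 and 0.0045 of its 41.7 and 45.7, although its canonical start was inside. FAM120B, described as a coactivator of a nuclear receptor, had 12.2 in both libraries, and transcripts from the domain 0.733 and 0.017. For OSTM1 transcripts from the domain had 0.016 in library 1 and were listed at 0 in library 2. PDE4DIP, a centrosome and Golgi protein, had 9.18 and 9.46 with 0.057 and 0.013 from the domain. These values rest on how the authors' software shared reads between transcripts of a gene.

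TNRC18, CYS1, LHX6, TLX3, SALL1 and KCNG1 had RNA from inside. TNRC18, the member with H3K27ac of both replicates, had 6.59 and 6.40, of which 3.46 and 4.18 came from transcripts that start in its domain of 12386 bp. CYS1, which encodes the ciliary protein cystin, had 4.11 and 4.14, all from the 2 starts inside. TLX3, a homeobox factor of spinal neurons, had 3.71 and 2.99 from its only start. SALL1, a zinc finger factor of nephron progenitors, had 2.79 and 2.84 with all 6 starts inside a domain that replicate 2 peaks covered to 90.9%. HMX2, RRAGD, CHST2 and C14orf132 also had 1 or more from the domain in both libraries, up to 2.05 in HMX2. For these genes a wide H3K27me3 domain and RNA from a start inside it were both listed. Whether both are present in the same cells was not tested.

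LHX6, a LIM homeobox factor of interneurons, had 3.25 and 4.26, of which 1.56 and 1.90 came from the domain. DGKG, a diacylglycerol kinase, had 3.38 and 4.09, with 0.880 and 1.05 from the domain. Among all 353 members, transcripts from inside the domain reached an FPKM of 1 in both libraries for 10 (2.83%), with a maximum mean of 4.12. The canonical start lay inside for 310 members, of which 16 reached 1 by gene (5.16%), and outside for 43, of which 8 did (18.6%).

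**Figure D5:**
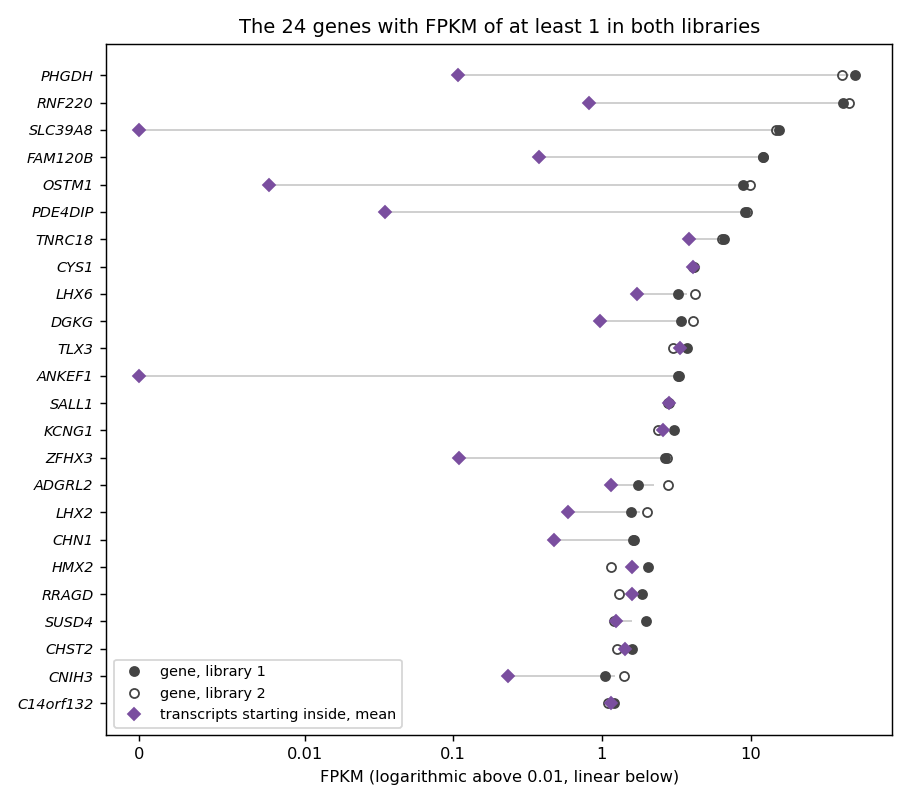
FPKM of the 24 members with at least 1 in both libraries, for the whole gene in library 1 (filled circles) and library 2 (open circles) and for transcripts that start inside the wide domain (diamonds, mean of both libraries). The diamonds of PHGDH, SLC39A8, OSTM1 and PDE4DIP lie far to the left of the circles, and those of CYS1, TLX3 and SALL1 lie at them.

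Transcription factors of lineage choice were frequent among members. Of 116 homeobox and PAX factors outside the HOX clusters, 53 (45.7%) started in a wide domain, and a further 19 only in narrower peaks. The background is the 1.8% of protein-coding genes that were members. Those in the widest domains were NKX2-3, TLX1, HMX2, HMX3 and VSX1, at 28617 to 29625 bp. NKX2-3 and TLX1 act in spleen development and were at 0 and at most 0.019 in both libraries, and HMX3, an inner ear factor, was listed at 0. Also among the 53 were NKX2-1, a factor of lung and thyroid, with 0 and 0.042, and OTX2 of the forebrain and eye, PAX3 and PAX7 of muscle and neural crest, and PDX1 of the pancreas, all listed at 0. HMX2, with 2.05 and 1.14, LHX2, with 1.58 and 2.02, LHX6 and TLX3 were the 4 that reached 1 in both libraries. Of these, LHX2 had its canonical start outside the wide domains.

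Of 42 basic helix-loop-helix lineage factors, 16 (38.1%) were members, against 1.8% of all protein-coding genes. None of these 16 reached 1 in both libraries, where 6.80% of all members did, and among 16 genes a count of 0 is near that share. They included SIM2, with 0.070 and 0.139 in a domain of 27523 bp, and NEUROG3, the endocrine pancreas factor, OLIG3 and HAND1, a heart factor, all listed at 0 in both. Of 87 forkhead, SOX, T-box and GATA factors, 18 (20.7%) were members. SOX2, a factor of stem cells and neural progenitors, and FOXF2 were listed at 0, while GATA3, which acts in the nephric duct, had 0.557 and 0.211. The canonical start of GATA3 lay outside its domain. In the same list SOX4, FOXE1 and FOXM1 were no members and had the highest FPKM, at 39.0 and 39.9, 28.2 and 25.7, and 28.1 and 25.6.

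HOX genes stood apart from the other homeobox factors. Of 39 HOX genes, 4 (10.3%) were members, against 1.8% of all protein-coding genes. In both libraries 26 of the 39 (66.7%) reached 1, against 58.9% of all protein-coding genes. The 4 were HOXA13, HOXC12, HOXC13 and HOXD13, which lie at the 5′ ends of their clusters and act in the most posterior body regions. HOXC13 had 0.706 and 0.423, HOXA13 had 0.097 and 0.086, HOXD13 had 0.047 and 0, and HOXC12 was listed at 0. HOXA9, HOXA10 and HOXA5 lay outside wide domains and had 153 and 131, 28.8 and 38.8, and 28.8 and 27.9.

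In the 4 factor lists together, 91 of 284 genes (32.0%) were members, which is 25.8% of all members. They lay in wider domains than the other 262 members, with medians of 16082 and 11151 bp, and were shorter genes, with medians of 6.24 and 52.3 kb. Of the factors, 24.2% were on chromosomes 1, 10 and 20, against 49.6% of the other members, whereas the 4 lists as a whole have 17.3% there. H3K4me3 of both replicates was present at 50.5% of the factors and 48.5% of the other members.

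Signalling ligands, ion channels and transmitter receptors were represented in wide domains and in narrower peaks. Over all protein-coding genes 1.8% were members and 7.65% had a TSS only in narrower peaks that met a replicate 2 peak, so the narrower class is larger for genes in general. Of 68 WNT, FGF, BMP, GDF and hedgehog ligands, 6 (8.82%) were members and 29 (42.6%) had a TSS only in narrower peaks. The 6 were BMP7, GDF10, BMP6, WNT2, WNT1 and WNT8B, of which the highest was WNT8B at 0.099 and 0.026. Of 135 potassium, calcium and sodium channel genes, 5 (3.70%) were members and 50 (37.0%) were in narrower peaks. KCNG1, a potassium channel subunit, was the member above 1, at 3.04 and 2.38, and CACNA1E and CACNA1C, pore subunits of calcium channels, had at most 0.0050. Of 103 transmitter receptors, 3 (2.91%) were members and 31 (30.1%) were in narrower peaks. The 3 were the adrenergic receptors ADRB1 and ADRA2A and, at a TSS other than its canonical one, the nicotinic subunit CHRNA4.

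Few genes of the tandem and housekeeping families were members. The background is 1.8% of all protein-coding genes, and in the shorter of these lists a count of 0 is near it. Of 398 olfactory receptor genes 1 was a member, OR6B3, and 1 of the 398 reached an FPKM of 1 in both libraries. None of 53 clustered protocadherins was a member, and 3 of them reached 1. Low RNA was therefore not always accompanied by a wide domain. Of 508 ZNF zinc finger genes 2 were members, ZNF385B and, at a TSS other than its canonical one, ZNF423. None of 86 cytosolic ribosomal protein genes was a member.

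Several regulators of the nephron were members. Of 36 nephron lineage factors, 8 (22.2%) started in a wide domain and 8 others (22.2%) in narrower peaks. Over all protein-coding genes these shares were 1.8% and 7.65%. PAX2, a factor of the ureteric bud and early nephron, had 0.372 and 0.400 in a domain of 16312 bp. EMX2, TFAP2B, LMX1B and HNF4A were listed at 0 in both libraries, and POU3F3 had 0.0014 and 0. HNF4A, a factor of the mature proximal tubule, had a wide domain of 9328 bp over a TSS other than its canonical one. No TSS of HNF4A had H3K27me3 peaks of both replicates within 1 kb. SALL1 was the only one of the 8 above 1. In the same list PAX8 and LHX1 were no members, and they had 100.2 and 104, and 61.9 and 60.1.

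Of 30 genes of proximal tubule function, 3 (10%) were members and 8 of the 30 (26.7%) reached 1 in both libraries. Over all protein-coding genes 1.8% were members and 58.9% reached 1 in both. In lists this short, the member counts of the distal nephron and podocyte genes below are near that background. LRP2, the endocytic receptor megalin, was listed at 0 in both and lay in a domain of 9041 bp. SLC6A19, a neutral amino acid transporter of the brush border, was listed at 0 in a domain of 9814 bp. PCK1, an enzyme of gluconeogenesis, had 0.014 and 0.011, with a TSS other than its canonical one in a domain of 16296 bp. None of 20 distal nephron genes was a member, and none of the 20 reached 1. Of 16 podocyte genes CLIC5, listed at 0, was the only member. Of 24 genes of the switch between epithelium and mesenchyme, OVOL2, a factor that maintains epithelium, was a member at 1.15 and 0.985, and TWIST2, a mesenchymal factor, was a member listed at 0.

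The markers of the labelled cell type were incomplete in these libraries. Of 16 proximal tubule markers PAX8, GGT1 and SLC5A2 reached an FPKM of 1 in both libraries, and 6 were listed at 0, of which LRP2 and HNF4A were members. EPCAM, KRT8, KRT18 and KRT19 of 5 markers of simple epithelium reached 1, but CDH1 did not, at 0.210 and 0.283. Of 5 mesenchymal markers VIM (709 and 1133), CDH2 and COL1A1 reached 1, PDGFRB had 0.933 and 0.693, and COL1A2 was listed at 0. Of 5 podocyte markers SYNPO (14.7 and 16.2) and PODXL (4.41 and 5.85) reached 1. Of 3 measured endothelial and 3 leukocyte markers, CD68 was the only one above 1, and PTPRC, CD3E, VWF and KDR were listed at 0.

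Genes of the Polycomb machinery were expressed. Of 36 genes of Polycomb complexes and their partners, 35 reached 1 in both libraries, against 58.9% of all protein-coding genes. None was a member, where 1.8% of all protein-coding genes were, and in a list this short the count is near that background. The methyltransferase EZH2 had 23.9 and 22.6, and the histone-binding subunits RBBP7 and RBBP4 had 77.3 and 82.1, and 43.8 and 45.3. RING1, an E3 ligase of Polycomb repressive complex 1, had 34.6 and 34.8.

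Genes next to wide domains had more RNA than those with a start inside. Among non-members with their canonical start within 10 kb of a wide domain, 70 of 141 (49.6%) had an FPKM of 1 or more in each library. The share was 54.3% of 414 genes at 10 to 50 kb, 65.7% of 1486 at 50 to 200 kb, 63.3% of 4161 at 200 kb to 1 Mb and 58.6% of 12949 beyond. In the nearest class 34.04% had H3K27me3 peaks of both replicates within 1 kb of a TSS, against 8.66% in the farthest.

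Long noncoding RNA genes in wide domains were also low. Of 181 with a TSS inside, PTPRG-AS1 was the only one with an FPKM of 1 or more in each library, at 5.97 and 4.08 (0.552%), against 4.86% of all 14097 measured. Of 6 miRNA genes, 63 processed pseudogenes and 15 unprocessed pseudogenes inside, none reached 1. Some members have near-identical copies, among them PPIAL4D, PPIAL4E, PPIAL4H, SYT15 with SYT15B and FCGR2B with FCGR2C, and their reads, and so their peaks and FPKM, are uncertain.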

How the data were processed

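ChIP-seq of H3K27me3, H3K4me3 and H3K27ac (2 replicates each) and RNA-seq (2 libraries) of HK2 cells were used. Input DNA and HiChIP samples were not used here. For ChIP-seq, alignment to hg19 by the authors used Bowtie2, and MACS2 was run on each replicate to call peaks. The deposited lists give the limits of each peak with no score or read number, so the reads behind a single peak are not given, and the library depths in the study's supplement were not used here. An unnumbered label was taken as replicate 1 where the other was labelled as replicate 2. RNA-seq reads were mapped by the authors with HISAT2. The deposited values are FPKM and TPM of each transcript, made with StringTie 1.3.3 on GENCODE release 27 per the file headers. These coordinates are of another build than the peaks, so genes were joined by Ensembl identifier only. No read counts were used, and the RNA depth is unknown here.

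TSSs, gene types and sequence came from GENCODE release 44 mapped to GRCh37 and the GRCh37 genome. FPKM was summed over the transcripts of a gene, and 0 stands for a gene listed at 0. A transcript from inside a domain that had no RNA value was also counted at 0. A mark was counted at a TSS where peaks of both replicates came within 1 kb. The interval functions were tested on simulated data. The software was pandas 2.3.3, numpy 2.4.6 and scipy 1.17.1 in Python 3.11.15, with matplotlib 3.10.9 for plots. Nothing says that the replicates are separate cultures, so their spread may be technical. No p-value is given, because there is 1 condition and genes and regions are not replicates.

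The domains, the 17 gene lists and the comparisons were chosen with earlier results of these data known. Genes were named by a rule that took those in the 10 widest domains and in the domains with most genes, the 10 members of highest FPKM, up to 5 members in the widest domains and the 3 genes of highest FPKM of each list, the genes next to the width limit, the 5 best covered by replicate 2, and the Polycomb list. Not all of these are reported here. LBX1, SLPI, DEFB126, DEFB127, NKX2-1, OTX2, PAX3, PAX7, PDX1, LHX2, CCDC172, PTPRG-AS1, TLX3, SALL1, KCNG1, HNF4A, LMX1B, RRAGD, CHST2, C14orf132 and WNT8B, and the genes with near-identical copies and the cell type markers, were chosen for naming outside this rule or after their values were seen.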

Additional observations from a re-analysis of the deposited data

How the results depend on the processing

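Of 90 recomputed values, 38 stayed within a set limit and 52 moved beyond it. For a count the limit was a factor of 1.5, and for most other results it was the spread between replicates. For the share of domains with a TSS it was a 95% binomial interval over the 1088 domains. As domains are not replicates, this interval served as a cutoff only. For the share of bases under replicate 2 peaks no limit was set, and any change counted as a move. The spread between the RNA-seq libraries was so small that any change in a share of expressed genes counted as a move. For H3K4me3 (49.6% and 77.6% by replicate) and the CpG ratio (0.22 and 0.59 by replicate list) the spread was wide. Large changes in these still stayed within the limit. With a width of at least 5000 bp there were 3007 domains and 747 member genes, 25.4% of domains had a TSS, replicate 2 covered 39.2% of bases, 8.03% of members were expressed (FPKM of 1 or more in each library), and the median FPKM was 0.016. With 12000 bp these values were 379, 176, 43.5%, 50.5%, 7.39% and 0.0071. With at least 50% of a domain covered by replicate 2 they were 377, 230, 58.1%, 68.8%, 5.65% and 0.011. Without chromosomes 1, 10 and 20, an alternative added after seeing the data, they were 452, 201, 42.7%, 46.5%, 7.46% and 0.0097. The median CpG ratio was 0.43 with 50% coverage by replicate 2 and 0.33 without the 3 chromosomes, within the spread between the replicates' own lists. All 176, 230 and 201 genes were among the 353. Joining replicate 1 peaks under 1000 bp apart left all 9 results recomputed identical, and these 9 are among the 38. Whether the list held any peaks that close was not counted. If it held none, this setting could change nothing, so it says little about how the results depend on joining.

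Leaving out an H3K27me3 replicate gave 86 to 1106 domains, 71 to 354 member genes, 31.4% to 76.7% with a TSS, 6.78% to 9.86% of members with an FPKM of at least 1, a median FPKM of 0.0092 to 0.0095, a median CpG ratio of 0.22 to 0.59, H3K4me3 at 48.9% to 52.1% of members, H3K27ac at 0% to 0.282% and, without replicate 2 in the rule, 43.4% of bases under its peaks. Each low count and high ratio came from the list of replicate 2. Each RNA-seq library alone gave 7.08% of members at an FPKM of at least 1 and a median of 0. With only the 5′ end of the gene record, 25.6% of domains had a TSS, 6.76% of members reached 1, and the median was 0.0091. TPM gave 11.6% and a median of 0.026, against 63.9% of all protein-coding genes with a TPM of at least 1. Keeping genes whose mean FPKM was 0.1 or more gave 27.9% and a median of 0.416, against 83.5% of all such genes. A threshold of 0.5 gave 8.50%, against 62.4% of all. The canonical TSS only gave 5.16% and transcripts starting inside 2.83%, both added after seeing the data. The mean of log10(FPKM + 0.1) was -0.75. H3K4me3 in either replicate was at 78.2% of members, and leaving out an H3K4me3 replicate gave 49.6% to 77.6%. H3K27ac in either replicate was at 5.95%, and leaving out an H3K27ac replicate gave 0.283% to 5.95%.

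No paired analysis was possible because all samples share 1 condition and no result comes from a test between groups. Peak lists without scores limit every count of domains, since a wide peak in 1 replicate was often several peaks in the other and the lists do not give the reads behind either. An FPKM near 0 does not show that a gene is silent at the depth of these libraries, which the files do not give. No group had enough samples for a search for outlying values.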
